A study of Mus musculus with 33 samples.

Results

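The histone genes were examined in poly-A RNA of mouse embryonic stem (ES) cells and of embryoid bodies (EBs), the aggregates that ES cells form on surfaces they do not attach to. Members were all genes whose symbol begins with Hist1h, Hist2h, Hist3h, Hist4h, H1f, H2af or H3f, which gave 64 of the 16336 genes listed. By symbol, 53 of them are replication-dependent histone genes (3 H1, 16 H2A, 14 H2B, 9 H3 and 11 H4) and 11 are replacement histone genes. The lines compared were the wild-type line E14Tg2a, of 129/Ola origin, and 2 clones derived from it, ΔK9.1 and ΔK9.2. Both clones carry a homozygous CRISPR/Cas9 deletion of the H3K9me3-marked region that lies between the enhancer and the promoter of *Nanog*, a pluripotency gene, and each mutant line is 1 clone. Cells of every line were sampled undifferentiated in FCS with LIF (day 0) and as EBs on days 4, 6 and 8 in FCS without LIF. The study's methods put the aggregates in dishes not treated for cell culture up to day 4, and after that back on gelatin in treated dishes at low density, so the day and the change of culture between days 4 and 6 cannot be told apart. Each line had 3 replicates per day (numbered 1, 2 and 3), apart from day 6, which had 2 (numbered 2 and 3), giving 33 libraries in 12 groups. Values below are listed in the order of these numbers, and are given in TPM, a transcript level scaled for transcript length and for the total of each library.

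Replication-dependent histone genes are arranged in clusters and supply the histones that package newly copied DNA in S phase. Their mRNAs normally end in a conserved stem-loop instead of a poly-A tail. The stem-loop is bound by SLBP, which directs 3′ end formation, translation and decay of the message. Replacement histones such as H3.3 and H2A.Z are made throughout the cell cycle from separate genes whose mRNAs carry a poly-A tail, and they are deposited independently of replication. The libraries were made from poly-A-selected RNA, so the TPM of a replication-dependent gene counts the transcripts recovered by that selection and is no measure of its total mRNA. In bulk RNA, fewer cells of a type and less RNA per cell cannot be told apart.

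The histone stem-loop was searched in the annotated transcripts because it is the known 3′ end of replication-dependent mRNAs. It was present in 33 of 53 replication-dependent genes and in 1 of 11 replacement genes, *H2afx*, against 0.298% of the 16112 listed genes with an annotated transcript. In the following transcript stretches (mm10, strand of the gene) the capitals mark both arms of the stem.
*Hist1h2ap*, chr13:21833026-21833049, minus strand: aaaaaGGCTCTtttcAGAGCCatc
*Hist2h2aa2*, chr3:96239779-96239804, minus strand: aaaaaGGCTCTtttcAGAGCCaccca
*Hist1h1c*, chr13:23739507-23739532, plus strand: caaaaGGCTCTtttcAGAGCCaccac
*Hist3h2ba*, chr11:58949344-58949369, plus strand: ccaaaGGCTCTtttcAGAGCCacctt
*Hist1h3g*, chr13:23535884-23535909, plus strand: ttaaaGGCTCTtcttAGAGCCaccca
*Hist1h4n*, chr13:21831793-21831818, minus strand: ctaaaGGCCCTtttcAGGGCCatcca
*H2afx*, chr9:44335235-44335260, plus strand: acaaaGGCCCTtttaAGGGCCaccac

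The form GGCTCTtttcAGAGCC was shared by 17 replication-dependent genes of the H1, H2A, H2B and H3 families. The form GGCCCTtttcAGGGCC occurred in 6 genes, all of them H4. *H2afx* encodes H2A.X, which is phosphorylated around DNA breaks, and its annotated transcript ran on for 822 nt past the stem-loop. A poly-A signal (AATAAA or ATTAAA in the last 50 nt of the transcript) was present in 12 of 53 replication-dependent genes and 10 of 11 replacement genes, against 81.7% of listed genes. The annotated transcripts of 12 replication-dependent genes extended more than 100 nt past the stem-loop, with *Hist3h2a* (1643 nt), *Hist1h1c* (840 nt) and *Hist1h4d* (770 nt) the longest. For 9 replication-dependent genes and 1 replacement gene the annotation holds the coding sequence alone, so neither feature could be seen in them. Another 11 replication-dependent genes showed no stem-loop, and some of their annotated transcripts are short as well. Those of *Hist1h2af* (399 nt) and *Hist1h2ah* (405 nt) are little longer than the coding sequence of *Hist1h2an* (393 nt). A stem-loop missing from the annotation therefore does not show that the mRNA lacks it.

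The promoter windows of the RefSeq annotation (GRCm38.p6, 250 bases before to 50 after the start) were available for 57 of the 64 members. The CCAAT box (CCAAT on either strand, that is, CCAAT or ATTGG) was found in 39 of 47 replication-dependent windows (83.0%) and 6 of 10 replacement windows, against 37.4% of all 32851 windows. The letters TATAAA on either strand were found in 27 of 47 replication-dependent windows (57.4%) and 1 of 10 replacement windows, against 13.6% of all windows. A match describes these letters alone. Windows are shown for the linker histone genes *Hist1h1c* and *H1f0*, of which the former is replication-dependent and the latter a replacement gene, and for *Hist2h2aa2*, an H2A gene, since these 3 carry the differences given below. Capitals mark the CCAAT box on either strand.
*Hist1h1c*, chr13:23738557-23738856, plus strand: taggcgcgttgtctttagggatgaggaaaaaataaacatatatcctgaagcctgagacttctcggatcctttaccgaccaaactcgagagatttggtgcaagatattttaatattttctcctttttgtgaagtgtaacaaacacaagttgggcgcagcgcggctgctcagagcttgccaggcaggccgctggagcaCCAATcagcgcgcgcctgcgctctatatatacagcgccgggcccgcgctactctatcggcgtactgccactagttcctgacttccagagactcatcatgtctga
*Hist2h2aa2*, chr3:96240325-96240624, minus strand: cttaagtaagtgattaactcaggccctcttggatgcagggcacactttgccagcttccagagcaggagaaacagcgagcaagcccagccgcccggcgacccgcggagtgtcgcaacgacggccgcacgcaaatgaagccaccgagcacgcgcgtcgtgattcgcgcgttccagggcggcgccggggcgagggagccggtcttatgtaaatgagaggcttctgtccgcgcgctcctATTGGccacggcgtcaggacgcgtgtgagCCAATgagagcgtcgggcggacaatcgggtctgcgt
*H1f0*, chr15:79027962-79028261, plus strand: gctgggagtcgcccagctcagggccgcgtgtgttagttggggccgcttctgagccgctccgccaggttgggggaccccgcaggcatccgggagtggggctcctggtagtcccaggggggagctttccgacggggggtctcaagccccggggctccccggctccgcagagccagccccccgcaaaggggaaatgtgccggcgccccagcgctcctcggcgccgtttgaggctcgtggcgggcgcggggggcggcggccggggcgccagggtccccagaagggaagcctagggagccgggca

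Replacement genes held nearly all histone TPM. Summed over their members, the 11 replacement genes gave 2639 to 4879 TPM per library (median 3917), whereas the 53 replication-dependent genes gave 67.8 to 254 TPM (median 116), or 1.39% to 6.42% of histone TPM (median 3.20%). *H2afz*, which encodes H2A.Z, had the highest mean level (1434 TPM over the 33 libraries), followed by *H3f3a* and *H3f3b*, which encode the same H3.3 protein. The lowest replacement gene was *H3f3c* (2.45 TPM), annotated as a processed pseudogene, and no replacement gene was listed at 0 in any library. The replication-dependent genes had a median level of 1.61 TPM, from 0.106 TPM for *Hist1h4m* to 10.3 TPM for *Hist1h2ap*, and 31 of them were listed at 0 in at least 1 library. Between 38 and 50 of the 53 were above 0 in a library (median 46). By family, the mean summed level was 50.1 TPM for H2A, 29.3 for H2B, 23.8 for H4, 18.3 for H3 and 6.67 for H1. The 12 replication-dependent genes with a poly-A signal had a median level of 2.85 TPM, against 1.24 TPM for the other 41, which together still held 94.5 of 128 summed TPM.

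Spread and shared sequence limit what single cluster genes can show. The median SD within groups was 0.49 on the log2(TPM + 1) scale for replication-dependent genes, against 0.21 for replacement genes and 0.24 for all genes. A median of 60.2% of the 31-nt stretches of a replication-dependent gene also occurred in another member, against 0% for replacement genes. In 4 pairs of replication-dependent genes (*Hist1h3h* with *Hist1h3i*, *Hist1h2bq* with *Hist1h2br*, *Hist2h2aa1* with *Hist2h2aa2*, *Hist1h4m* with *Hist1h4n*) more than 85% of the stretches were shared both ways, so how reads were split within these pairs is uncertain. The same doubt reaches past these pairs, since 33 of the 53 genes shared over 50% of their stretches with other members. Among them were *Hist1h2ai* (92.0%), *Hist1h2ah* (90.4%) and *Hist1h2ag* (79.8%), which were not summed with any other gene. The pseudogene *H3f3c* shared 79.3% of its stretches with other members. Of the replication-dependent genes, 44 lie on chromosome 13, 7 in a cluster on chromosome 3 (96220361 to 96270132) and 2 on chromosome 11 (58948920 to 58956830).

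Between 12903 and 13905 genes had at least 1 TPM in a library. In E14Tg2a, 8 of 8 pluripotency markers were lower and 8 of 8 extra-embryonic endoderm markers and 6 of 6 mesoderm markers were higher on day 8 than on day 0, and 4 of 4 neural markers were lower (68.7 then 20.5 TPM in sum). On day 8, by the calls defined below, 5 of 8 extra-embryonic endoderm markers were lower and 5 of 8 pluripotency markers higher in the clones than in E14Tg2a, and 2 of 6 mesoderm markers were higher and 2 lower, where 3.42% of all genes were called lower and 0.826% higher.

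The summed level of the replication-dependent genes was highest in undifferentiated E14Tg2a cells. It was 254, 188 and 214 TPM in E14Tg2a on day 0, and 104, 69.1 and 97.02 TPM in ΔK9.1 and 208, 121 and 159 TPM in ΔK9.2. On day 8 it was 157, 152 and 116 TPM in E14Tg2a, 104, 88.7 and 92.5 TPM in ΔK9.1, and 67.8, 124 and 80.2 TPM in ΔK9.2. The E14Tg2a libraries of day 0 all lay above those of day 8, whereas the libraries of both days overlapped within each clone. The group means of E14Tg2a were 218 ± 33.1 (SD, n = 3), 142, 166 and 142 TPM on days 0, 4, 6 and 8, those of ΔK9.1 were 90.0, 105, 80.3 and 94.9 TPM, and those of ΔK9.2 were 163, 139, 93.1 and 90.5 TPM. The replacement sum of the clones was 92.3%, 91.5%, 96.1% and 109% of that of E14Tg2a on days 0, 4, 6 and 8, against 57.8%, 86.0%, 52.2% and 65.5% for the replication-dependent sum. Every clone library of days 0, 6 and 8 (6, 4 and 6) had a lower replication-dependent sum than the E14Tg2a library of the same number, and so did 4 of 6 clone libraries of day 4. By the same count the replacement sum was lower in 6 of 6, 6 of 6, 3 of 4 and 0 of 6 clone libraries on days 0, 4, 6 and 8. The groups nevertheless overlapped on every day but day 6. As a share of histone TPM they overlapped on days 0 and 4 alone. No test was run on these sums.

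**Figure D1:**
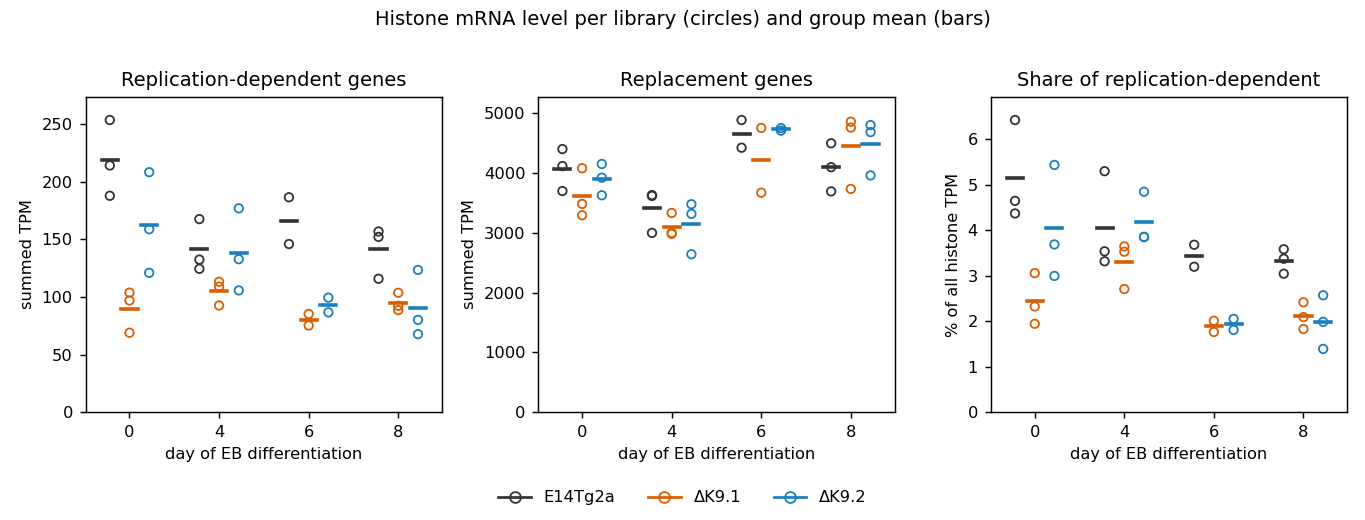
Summed TPM of the 53 replication-dependent genes, summed TPM of the 11 replacement genes, and the replication-dependent share of histone TPM (%), by day of differentiation and line. Circles are libraries and bars are group means (n = 3, and n = 2 on day 6). The E14Tg2a libraries of day 0, at 188 to 254 TPM, hold the highest mean replication-dependent sum, and on day 6 both E14Tg2a libraries lie above all 4 clone libraries.

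Other measures were read beside these sums. Of 22 RNAs known to lack a poly-A tail that were looked up (histones excepted), 15 were listed, and their summed level ran from 177 to 1653 TPM per library. The clone mean of that sum was 101% of E14Tg2a on day 0, where the replication-dependent sum was 57.8%, and 51.3%, 83.0% and 80.4% on days 4, 6 and 8. The summed level of the S phase list was 2632 to 3880 TPM per library. Its means in E14Tg2a, ΔK9.1 and ΔK9.2 were 3710, 3695 and 3653 TPM on day 0, and 3155, 3341 and 3270 TPM on day 8. E14Tg2a replicate 1 of day 0, the library with the highest replication-dependent sum, had 101 TPM of extra-embryonic endoderm markers, against 6.55 and 10.02 TPM in replicates 2 and 3. The part of any of these in the replication-dependent sums was not tested.

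Each gene was then compared between days and lines with limma on log2(TPM + 1). A gene is said to have passed at a Benjamini-Hochberg adjusted p below 0.05 over all 16336 genes, and to have been called if its log2 difference also exceeded 1 in size. Differences below are on that log2 scale, with the standard error (SE), and understate the change of genes with low TPM.

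Among replacement genes, the linker histone *H1f0* and the macroH2A gene *H2afy2* rose by day 8 in all 3 lines. *H1f0* encodes H1.0, a linker histone known to accumulate in differentiating cells. Its level in E14Tg2a was 119, 85.7 and 114 TPM on day 0 and 278, 256 and 212 TPM on day 8. The corresponding levels were 96.9, 90.7 and 103 then 282, 225 and 182 TPM in ΔK9.1, and 102, 82.3 and 95.8 then 211, 243 and 230 TPM in ΔK9.2. Day 8 libraries lay above all day 0 libraries in every line, a difference of 1.22 ± 0.21 in E14Tg2a (adjusted p = 1.62e-05, limma), 1.22 in ΔK9.1 (adjusted p = 2.59e-05) and 1.28 in ΔK9.2 (adjusted p = 1.16e-05). In E14Tg2a, 26.9% of all genes were called on day 8 in either direction and 15.9% were called higher, against 2 of 11 replacement genes called higher and 0 lower. With median-ratio scaling 1 histone member was called higher there.

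*H2afy2* encodes macroH2A2, a variant associated with stable repression, and it moved in both directions along the time course. In E14Tg2a it was at 21.4, 34.4 and 30.5 TPM on day 0, fell to 8.13, 17.5 and 16.1 TPM on day 4, and reached 52.4 and 42.2 TPM on day 6 and 50.6, 70.6 and 54.5 TPM on day 8. All day 4 libraries lay below, and all day 8 libraries above, those of day 0. The differences from day 0 were -1.04 ± 0.29 on day 4 (adjusted p = 0.0105, limma; 0.0769 with only the groups compared fitted, 0.0934 without day 4 replicate 1 and 0.0576 without day 0 replicate 2) and 1.01 ± 0.29 on day 8 (adjusted p = 0.00469). In the clones the day 4 differences were -1.13 in ΔK9.1 (adjusted p = 0.00564) and -1.20 in ΔK9.2 (adjusted p = 0.00291), and the day 8 differences were 1.18 (adjusted p = 0.0017) and 1.02 (adjusted p = 0.00527). With median-ratio scaling 0 members were called lower in ΔK9.1 on day 4, so that call was lost. *H2afy*, which encodes macroH2A1, did not pass on any day in E14Tg2a and ranged from 99.8 to 218 TPM over the 33 libraries.

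*H2afx* and *H2afj* fell in E14Tg2a. *H2afx* was at 406, 364 and 371 TPM on day 0 and at 234, 216 and 246 TPM on day 8, with no overlap, a difference of -0.71 ± 0.13 (adjusted p = 7.24e-05, limma). Its day 8 difference in ΔK9.2 was -0.35 (adjusted p = 0.0328), which did not pass with median-ratio scaling (0.0621), with only the groups compared fitted (0.053) or without ΔK9.2 replicate 1 or 3 of day 0 or 1 or 2 of day 8 (0.0782 to 0.145). In ΔK9.1 it started lower, at 287, 216 and 286 TPM, and its day 8 libraries, at 300, 255 and 201 TPM, overlapped those of day 0. *H2afj*, which encodes H2A.J, was at 71.6, 87.3 and 89.5 TPM in E14Tg2a on day 0, 41.9 and 28.0 TPM on day 6, and 54.7, 35.1 and 37.9 TPM on day 8. Its differences from day 0 were -1.24 ± 0.19 on day 6 (adjusted p = 1.02e-05), called, and -0.96 ± 0.17 on day 8 (adjusted p = 2.49e-05), passed.

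*H2afz*, *H3f3a* and *H1fx* also passed in E14Tg2a. *H2afz* stood at 1487, 1667 and 1783 TPM in E14Tg2a on day 0, 920, 1237 and 1161 TPM on day 4 and 1407, 1136 and 1085 TPM on day 8. It was lower on both later days, with differences of -0.58 ± 0.16 (adjusted p = 0.00728, limma) and -0.45 ± 0.16 (adjusted p = 0.0159), of which the first was lost without day 4 replicate 1 (adjusted p = 0.0559) and the other without day 0 replicate 3 or day 8 replicate 2 or 3 (0.0556 to 0.0725), while on day 6 it was at 1740 and 1567 TPM. *H3f3a* was at 695, 918 and 976 TPM on day 0 and 1219, 1325 and 1023 TPM on day 8, a difference of 0.47 ± 0.18 (adjusted p = 0.0287) that did not pass with median-ratio scaling (adjusted p = 0.0678), with only the groups compared fitted (0.0571) or without day 0 replicate 1 or day 8 replicate 1 or 2 (0.0683 to 0.17). Its day 8 differences in the clones were 0.78 (adjusted p = 0.000892) and 0.61 (adjusted p = 0.00672). *H1fx*, which encodes the linker histone H1x, rose by 0.75 ± 0.22 in E14Tg2a (adjusted p = 0.0058), 0.60 in ΔK9.1 (adjusted p = 0.0294, or 0.0577 with median-ratio scaling and 0.0688 to 0.12 without replicate 1 or 2 of either day) and 0.97 in ΔK9.2 (adjusted p = 0.000798) by day 8. *H3f3b* passed on day 8 in ΔK9.1 (0.64, adjusted p = 0.00202), and whether that difference departs from those of the other lines was not tested for this clone by itself. The level of *H2afv*, the other H2A.Z gene, stayed between 155 and 251 TPM over the 33 libraries and did not pass in E14Tg2a.

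**Figure D2:**
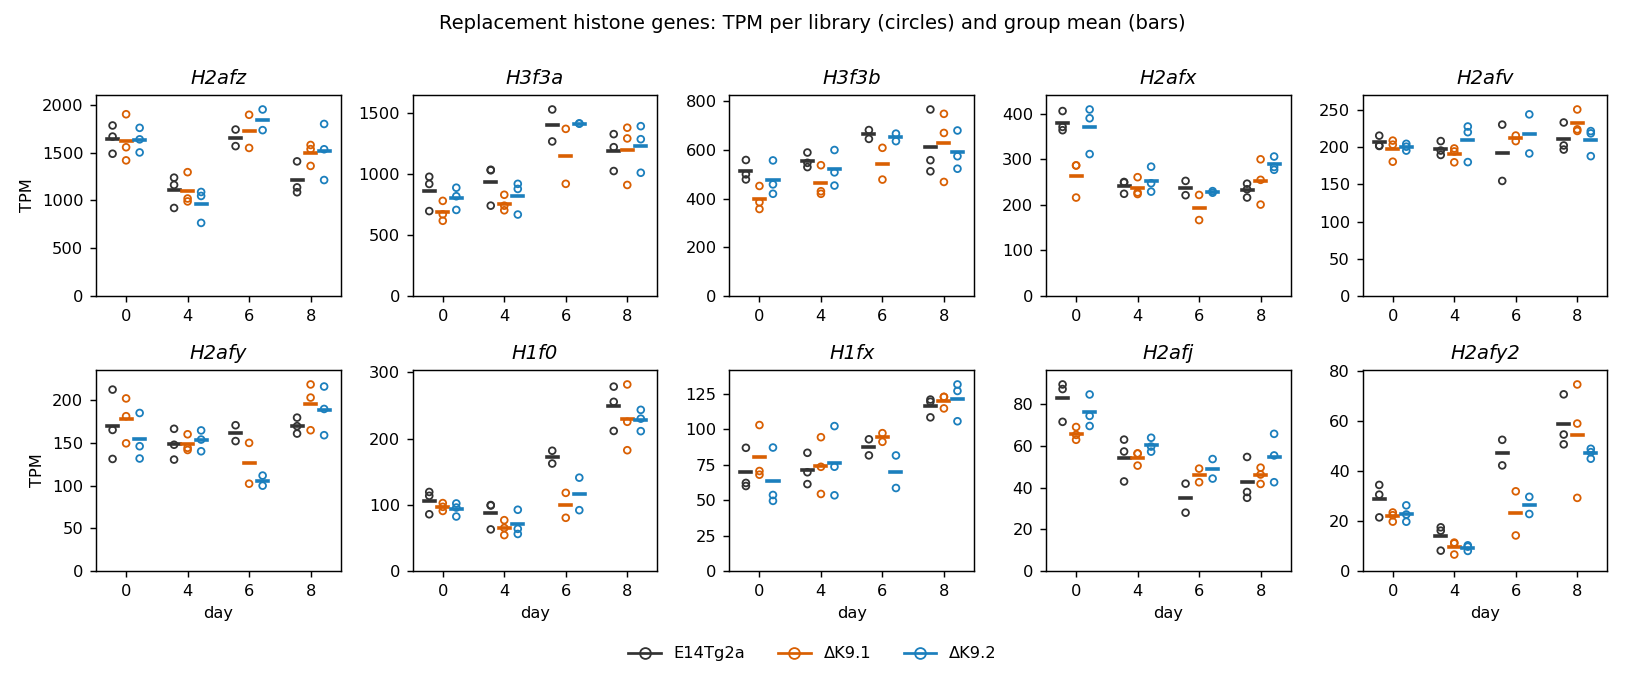
TPM of 10 replacement histone genes by day of differentiation and line. Circles are libraries and short bars are group means. *H1f0* and *H2afy2* are higher on day 8 than on day 0 in every line, *H2afy2* is lowest on day 4, and *H2afx* is highest in E14Tg2a and ΔK9.2 on day 0.

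The replication-dependent genes that passed in E14Tg2a were all lower on days 4 and 8 than on day 0, except that *Hist3h2ba* was called higher on day 4 (1.09) with the replicate block (adjusted p = 0.0351, limma) or with only the groups compared fitted (0.0266). Histone members of both classes called in either direction numbered 9 on day 4 (against 7.74% of all genes), 10 on day 6 (17.6%) and 10 on day 8 (26.9%). Of the replication-dependent genes, on day 4, 8 of 53 were called lower (15.1%, against 4.07% of all genes) and 0 higher (3.67%). On day 6, 7 were called lower (13.2%, against 8.69%) and 2 higher (3.77%, against 8.95%), *Hist1h3h* and *Hist1h2ai*, of which *Hist1h2ai* was chosen after its values were seen and *Hist1h3h* did not pass when summed with its near-identical partner (0.75, adjusted p = 0.19, limma), with a pseudocount of 0.1 (0.0737) or without replicate 2 or 3 of either day (0.0519 to 0.287). *Hist1h2ai* (adjusted p = 0.0498) did not pass with a pseudocount of 0.1 (0.107), with median-ratio scaling (0.0517) or without day 6 replicate 2 (0.205), among other settings. On day 8, 8 were called lower (15.1%, against 11.0%) and 0 higher (against 15.9%), and without the fold minimum 15 passed lower (28.3%, against 26.2%; 9 with a pseudocount of 0.1) and 0 higher (against 32.1%). The median difference of the 53 genes was -0.45, -0.39 and -0.38 on days 4, 6 and 8, against -0.07, 0.00 and 0.05 for all genes. The share called lower on day 8 was thus near that of all genes, whereas 15.9% of all genes and 0 of 53 members were called higher.

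*Hist2h2aa2* and *Hist1h2bc* were called lower on all 3 later days in E14Tg2a. *Hist2h2aa2* was at 24.96, 17.4 and 17.8 TPM on day 0, 9.54, 4.67 and 3.97 TPM on day 4, 1.31 and 1.83 TPM on day 6 and 9.61, 7.98 and 5.68 TPM on day 8. All later libraries lay below those of day 0, and the lowest were those of day 6. The differences were -1.64 ± 0.48 (adjusted p = 0.0136, limma), -3.02 ± 0.54 (adjusted p = 8.23e-05) and -1.27 ± 0.48 (adjusted p = 0.0266). Those of days 4 and 8 did not pass with a pseudocount of 0.1 (adjusted p = 0.123 and 0.173) or without E14Tg2a replicate 1 of day 0 (0.0532 and 0.0889), and were also lost without replicate 3 of day 4 (0.0679) and replicate 2 or 3 of day 8 (0.0503 and 0.0951). Because *Hist2h2aa1* shares its sequence, the pair was also summed before the fit, which gave -1.49 (adjusted p = 0.0011), -2.44 (adjusted p = 6.41e-06) and -1.22 (adjusted p = 0.00195). *Hist1h2bc*, an H2B gene on chromosome 13, was at 19.5, 9.63 and 12.2 TPM on day 0 and at 4.93, 7.39 and 4.95 TPM on day 8, with no overlap, and its differences were -1.48, -1.91 and -1.10 ± 0.29 on days 4, 6 and 8 (day 8 adjusted p = 0.00225). The H3 genes *Hist1h3g* and *Hist2h3c2* were likewise called lower on all 3 days, with day 8 differences of -1.09 ± 0.34 (adjusted p = 0.00763, or 0.0613 with a pseudocount of 0.1) and -1.11 ± 0.31 (adjusted p = 0.00305). *Hist1h3g* went from 4.26, 5.76 and 4.22 TPM to 1.80, 2.18 and 1.17 TPM, and *Hist2h3c2* from 3.25, 2.39 and 2.898 TPM to 0.907, 0.710 and 0.706 TPM, in both cases with no overlap.

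The other H2A, H2B and H4 genes called lower on day 8 in E14Tg2a were *Hist1h2ae*, *Hist1h2bq*, *Hist1h2br* and *Hist1h4h*. *Hist1h2ae* was at 6.95, 7.56 and 7.93 TPM on day 0 and 2.92, 3.42 and 2.48 TPM on day 8, a difference of -1.11 ± 0.27 (adjusted p = 0.000861, limma) with no overlap. *Hist1h2br* had the largest day 8 difference of the 53, -1.98 ± 0.52 (adjusted p = 0.00208), from 10.03, 3.12 and 4.61 TPM to 1.104, 0.990 and 0 TPM. Its near-identical partner *Hist1h2bq* was lower by -1.68 ± 0.50 (adjusted p = 0.00558, or 0.0521 without day 8 replicate 3), and their sum by -2.23 (adjusted p = 0.00159). *Hist1h4h* was lower by -1.45 ± 0.42 (adjusted p = 0.00493, or 0.0632 with only the groups compared fitted) although 1 day 8 library, at 6.15 TPM, overlapped the day 0 range of 5.25 to 9.94 TPM. Of the H1 genes, *Hist1h1c*, which encodes the linker histone H1.2, did not pass on any day in E14Tg2a and was at 5.94, 3.44 and 7.96 TPM on day 0 and 7.64, 13.05 and 8.01 TPM on day 8.

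The chromosome 11 gene *Hist3h2ba* is an H2B gene whose annotated transcript carries both the stem-loop printed above and 169 nt beyond it. It was higher on day 4 than on day 0 in all 3 lines, and the rise was called in the clones. In E14Tg2a it was at 6.54, 7.04 and 7.32 TPM on day 0 and 16.4, 11.6 and 21.0 TPM on day 4, in ΔK9.1 at 2.30, 0.659 and 2.13 then 5.91, 12.4 and 22.9 TPM, and in ΔK9.2 at 3.28, 2.04 and 2.31 then 5.69, 14.4 and 34.5 TPM. Day 4 libraries lay above all day 0 libraries of their line. On day 0 all clone libraries lay below those of E14Tg2a, whereas on day 4 the lines overlapped. The differences were 2.34 ± 0.50 in ΔK9.1 (adjusted p = 0.00116, limma) and 2.13 ± 0.50 in ΔK9.2 (adjusted p = 0.00199), both called, and 1.09 in E14Tg2a (adjusted p = 0.111, or 0.0351 with the replicate number as a block). On day 8 it was back at 6.10, 3.15 and 7.13 TPM in E14Tg2a.

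In ΔK9.1, few cluster genes were called over time, namely *Hist3h2ba* and *Hist3h2a* (both higher) on day 4, *Hist1h2bc* (lower) on day 6, and *Hist3h2a* and *Hist2h2bb* (both higher) on day 8, of which *Hist3h2a* and *Hist2h2bb* were chosen after their values were seen. These 2, 1 and 2 of 53 stand against 5.39%, 12.8% and 20.9% of all genes, and their median differences from day 0 were 0.13, -0.07 and 0.01 (all genes -0.21, -0.09 and 0.00). In ΔK9.2, 4 were called on day 4 (*Hist3h2ba* higher, *Hist2h2aa2*, *Hist1h2bc* and *Hist1h4i* lower), 7 on day 6 (5 lower, and *Hist1h2ag* and *Hist1h4m* higher, the latter named after its values were seen and negative when summed with its near-identical partner *Hist1h4n*, -0.18, adjusted p = 0.801) and 6 on day 8 (all lower), against 7.62%, 17.5% and 22.2% of all genes, with medians of -0.34, -0.30 and -0.46 (all genes -0.16, -0.07 and -0.02). For *Hist2h2aa2* the day 8 difference was -1.88 in ΔK9.2 (adjusted p = 0.00205, limma), and for *Hist1h2bc* -1.62 (adjusted p = 4.59e-05), while neither passed in ΔK9.1 on day 8 (*Hist1h2bc* did with the replicate number as a block, -0.65, adjusted p = 0.0357). Calls lost without 1 library included *Hist3h2a* on day 4 (adjusted p = 0.0714 without ΔK9.1 replicate 2 of day 0, 0.0835 without replicate 3 of day 4), *Hist1h2bc* on day 6 (0.076 without ΔK9.1 replicate 2 of day 6), *Hist2h2bb* on day 8 (0.066 without ΔK9.1 replicate 2 of day 8), *Hist1h2ag* in ΔK9.2 on day 6 (0.0866 to 0.0948 without replicate 1 of day 0 or 2 or 3 of day 6) and, on day 4, *Hist2h2aa2* in ΔK9.2 (0.0513 to 0.111 without replicate 1 of day 0 or 1, 2 or 3 of day 4), which also failed with a pseudocount of 0.1 (0.167) and with median-ratio scaling (0.0575). The ΔK9.1 levels of *Hist2h2aa2* were 1.27, 4.12 and 8.95 TPM on day 0 and 4.40, 0 and 4.07 TPM on day 8. Those in ΔK9.2 were 19.1, 12.4 and 12.3 TPM on day 0 and 1.41, 3.74 and 5.24 TPM on day 8. ΔK9.1 thus started below E14Tg2a and ΔK9.2 on day 0, and all 3 lines were below 10 TPM on day 8. Whether the time course itself differed was tested as the day 8 minus day 0 difference of both clones minus that of E14Tg2a: 0 of 64 members were called with limma (3.05% of all genes) and 10 had an unadjusted p below 0.05 (22.2% of all genes). The median of the replication-dependent genes in that test was 0.21, with 17 of 53 negative, against -0.08 and 58.3% negative for all genes. *Hist2h2be* alone passed without the fold minimum (adjusted p = 0.0364, where 6.30% of all genes passed), and it did not pass with a pseudocount of 0.1 (0.0537), with only the groups compared fitted (0.0901) or when any 1 of 9 libraries was left out (0.0503 to 0.111).

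**Figure D3:**
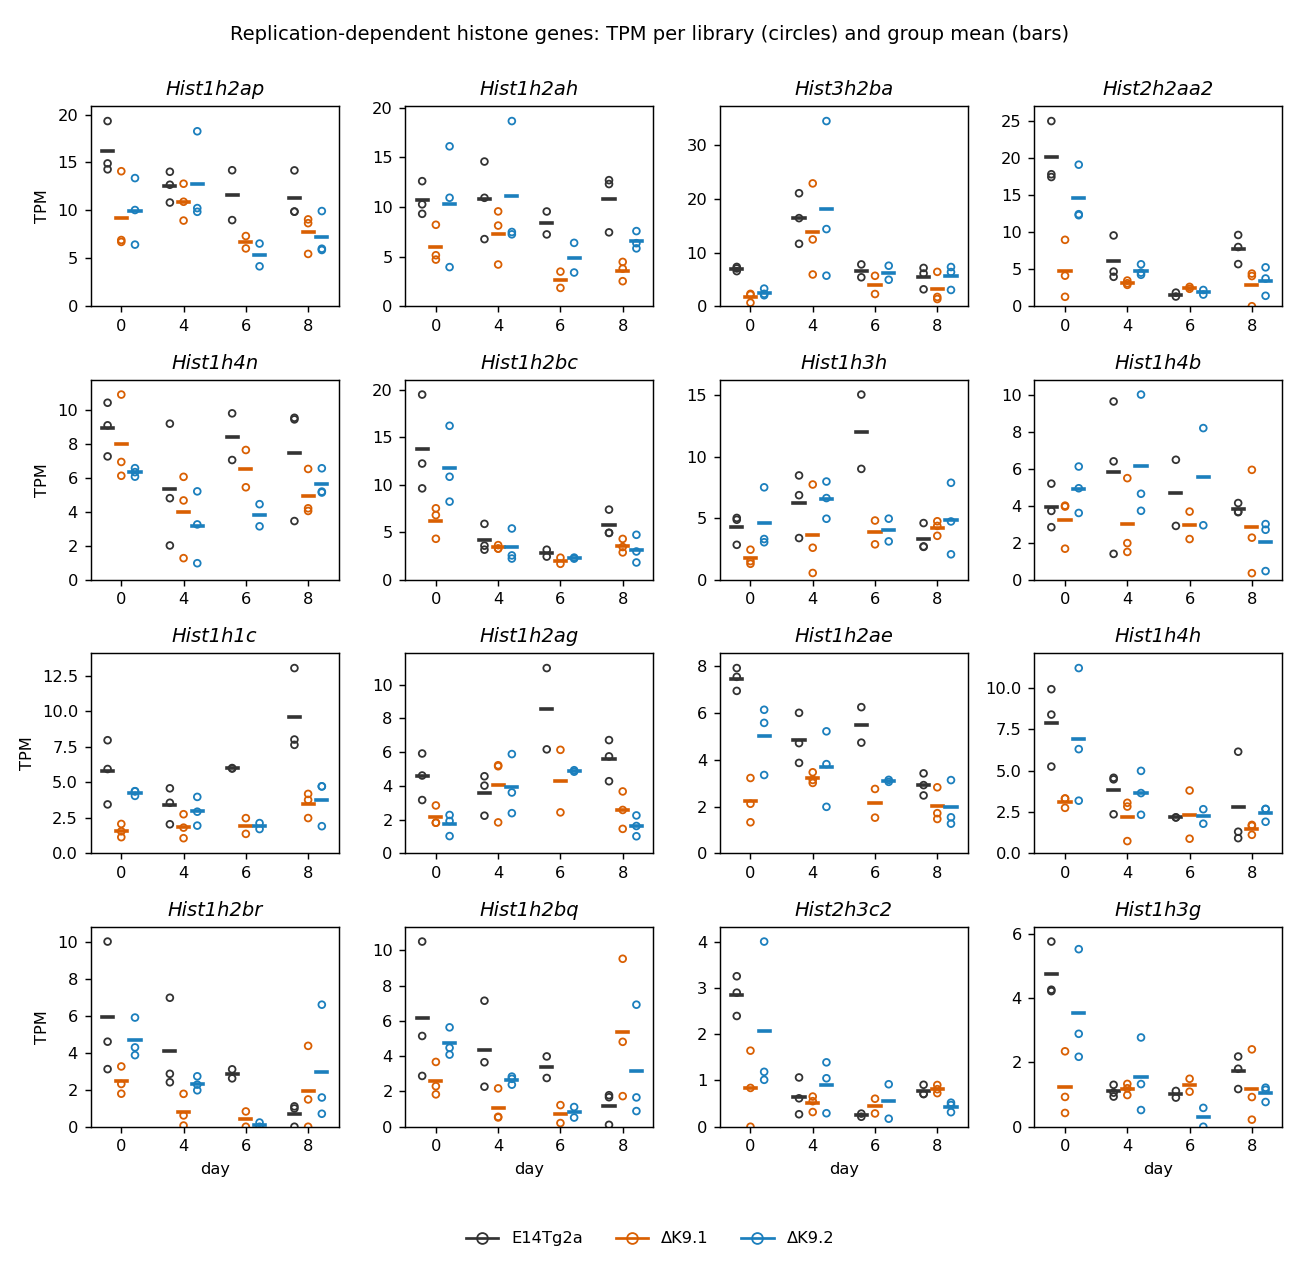
TPM of 16 replication-dependent genes by day and line, being the 12 with the highest mean level and *Hist1h2br*, *Hist1h2bq*, *Hist2h3c2* and *Hist1h3g*. Circles are libraries and short bars are group means. *Hist2h2aa2* and *Hist1h2bc* fall after day 0 in E14Tg2a and ΔK9.2, and *Hist3h2ba* is highest on day 4.

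The comparisons of both clones with E14Tg2a on the same day share the E14Tg2a libraries between clones. In undifferentiated cells the differences of the replication-dependent genes were mostly negative. On day 0, 3 of 53 replication-dependent genes were called lower (5.66%) and 0 higher, against 0.165% and 0.220% of all genes and 0.386% in either direction. The median difference was -0.58, against 0.05 for all genes, 49 of 53 were negative (40.7% of all genes), and 20 had an unadjusted p below 0.05 (17.6% of all genes). The 3 called were *Hist3h2a*, *Hist1h3a* and *Hist1h2bj*, an H2A, an H3 and an H2B gene, each named after its values were seen. *Hist3h2a* was at 4.91, 2.49 and 3.93 TPM in E14Tg2a, 0.460, 0 and 0.585 TPM in ΔK9.1 and 2.68, 1.04 and 1.94 TPM in ΔK9.2, a difference of -1.28 ± 0.30 (adjusted p = 0.014, limma). The ΔK9.1 libraries of *Hist3h2a* all lay below E14Tg2a, whereas 1 of the ΔK9.2 libraries lay within its range. *Hist1h3a* was at 4.79, 2.83 and 3.48 TPM in E14Tg2a, 1.61, 0.209 and 0.872 TPM in ΔK9.1 and 0.918, 1.43 and 2.01 TPM in ΔK9.2, with no overlap and a difference of -1.15 ± 0.27 (adjusted p = 0.0154). *Hist1h2bj* was at 2.06, 4.52 and 5.34 TPM, 0.318, 0 and 0.739 TPM, and 1.498, 1.59 and 2.31 TPM in the same lines, and differed by -1.31 ± 0.32 (adjusted p = 0.0185) with 1 ΔK9.2 library inside the E14Tg2a range. With near-identical pairs summed, *Hist2h2aa1* plus *Hist2h2aa2* was called lower as well (-1.16, adjusted p = 0.0155), at -1.94 in ΔK9.1 (adjusted p = 0.000372) and -0.38 in ΔK9.2 (adjusted p = 0.973). A pseudocount of 0.1 lost *Hist1h2bj* (adjusted p = 0.0734), and fitting only the groups compared lost *Hist1h3a* (0.0509). Without E14Tg2a replicate 3 none of the 3 passed (0.0923, 0.0775 and 0.179), without replicate 1 *Hist3h2a* (0.0591) and *Hist1h3a* (0.0647) did not, and without replicate 2 *Hist1h2bj* did not (0.116). *Hist1h2ae* (-0.98, adjusted p = 0.0144) and *Hist2h2be* (-0.45, adjusted p = 0.0225) passed lower without the fold minimum, which makes 5 of 53 (9.43%), against 1.23% of all genes, and both were lost without E14Tg2a replicate 2 (0.0722 and 0.151) or 3 (0.0979 and 0.159). All clone libraries lay below all E14Tg2a libraries for 7 of 53, against 2.75% of all genes, and above them for 0, against 5.17%.

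Set against E14Tg2a by itself on day 0, ΔK9.1 had 12 of 53 replication-dependent genes called, all lower, where 1.92% of all genes were called in either direction. In the same fit ΔK9.2 had 0 called with limma (0.0551% of all genes) and 7 at an unadjusted p below 0.05 (6.59% of all genes). The difference between the clones was not tested. The replication-dependent sum of ΔK9.1 was 41.2% of that of E14Tg2a and the sum of ΔK9.2 was 74.5%. Among replacement genes *H2afx* was also lower in ΔK9.1 (-0.54, adjusted p = 0.0103, limma). For both clones together, 0 of 11 replacement genes passed on day 0 with limma, against 3.99% of all genes, with 1 at an unadjusted p below 0.05 (17.6% of all genes) and a median of -0.15. The call count of the comparison fell to 0 of 64 without E14Tg2a replicate 3 and rose to 6 without ΔK9.2 replicate 1. With the replicate number as a block, 9 replication-dependent genes passed lower, against 5 without it, *Hist3h2ba* among them (-1.40, adjusted p = 0.0129).

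On day 4 no member was called between clones and E14Tg2a with limma (0.796% of all genes were), and 5 of 53 replication-dependent genes and 0 of 11 replacement genes had an unadjusted p below 0.05 (15.5% of all genes). The median difference of the replication-dependent genes was -0.21, against -0.06 for all genes. On day 6, with 2 E14Tg2a libraries, *Hist1h1c* was called lower (1 member, against 1.62% of all genes), and the median of the replication-dependent genes was -0.38 (all genes -0.03), with 42 of 53 negative (54.2% of all genes). *Hist1h1c* was at 6.00 and 5.97 TPM in E14Tg2a, 2.47 and 1.37 TPM in ΔK9.1 and 1.70 and 2.13 TPM in ΔK9.2. The groups did not overlap, and the difference was -1.27 ± 0.32 (adjusted p = 0.0209). *Hist1h4c*, an H4 gene, also passed lower (-0.78, adjusted p = 0.00444) and *Hist1h4m* higher (0.72, adjusted p = 0.000678), the latter listed above 0 on that day in the ΔK9.2 libraries alone (1.26 and 2.24 TPM), and both were chosen after their values were seen. *Hist1h4m* did not keep its direction when summed with its near-identical partner *Hist1h4n* (-0.43, adjusted p = 0.713). The call of *Hist1h1c* was lost when E14Tg2a replicate 2 or 3, ΔK9.1 replicate 3 or ΔK9.2 replicate 2 of that day was left out (adjusted p = 0.0705 to 0.234), and that of *Hist1h4c* without E14Tg2a replicate 2 or 3 (0.0879 and 0.0616). With only the groups compared fitted, none of the 3 passed (0.0953, 0.097 and 0.135), and *Hist2h2aa1* was called lower instead (-1.28, adjusted p = 0.0351, or 0.256 with all libraries fitted). *Hist2h2aa1* is named after its values were seen, and its sum with *Hist2h2aa2* did not pass (-0.33, adjusted p = 0.696). All libraries of both clones lay below all E14Tg2a libraries for 18 of 53 replication-dependent genes on day 6, against 19.6% of all genes, and above them for 0 of 53, against 12.8%.

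On day 8, *Hist1h1c*, *Hist1h2ag* and *Hist2h2aa2* were lower in the clones. They were the 3 of 53 called (5.66%, against 3.42% of all genes called lower and 4.24% called in either direction), and 0 were called higher (0.826%). With the replicate number as a block 1 was called higher, *Hist1h2bq* (1.10, adjusted p = 0.0496, limma, or 0.0749 without the block). Its sum with *Hist1h2br*, fitted without the block, did not pass (1.36, adjusted p = 0.052). *Hist1h1c* was at 7.64, 13.05 and 8.01 TPM in E14Tg2a, 3.76, 4.18 and 2.48 TPM in ΔK9.1 and 1.91, 4.72 and 4.71 TPM in ΔK9.2, a difference of -1.20 ± 0.26 (adjusted p = 0.0018, limma) with no overlap. Its day 0 difference was -0.83 and did not pass (adjusted p = 0.0685), with 5.94, 3.44 and 7.96 TPM in E14Tg2a, 1.55, 1.13 and 2.06 TPM in ΔK9.1 and 4.37, 4.04 and 4.36 TPM in ΔK9.2, so that the ΔK9.1 libraries alone lay below all E14Tg2a libraries. *Hist1h2ag*, an H2A gene, was at 6.71, 4.27 and 5.74 TPM, 2.57, 3.66 and 1.45 TPM, and 1.01, 1.62 and 2.24 TPM in the same lines, a difference of -1.13 ± 0.30 (adjusted p = 0.00842), also with no overlap. The lines were likewise apart for *Hist2h2aa2*, whose values are given above, by -1.28 ± 0.42 (adjusted p = 0.032). Summed with *Hist2h2aa1* it differed by -0.94 (adjusted p = 0.0175), which passed but was below the fold minimum, and unsummed it did not pass with a pseudocount of 0.1 (adjusted p = 0.0632) or without E14Tg2a replicate 1 or 2, ΔK9.1 replicate 2 or ΔK9.2 replicate 1 (0.0607 to 0.129). *Hist1h2ah* (-0.98, adjusted p = 0.0379) and *Hist2h2ac* (-0.71, adjusted p = 0.0408), both H2A genes, passed lower without reaching the fold minimum, the latter named after its values were seen, and each did not pass when any 1 of 6 libraries of that day was left out (0.0511 to 0.183 and 0.0595 to 0.239). With the block, *Hist1h2bc* passed lower as well (-0.65, adjusted p = 0.0346).

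The day 8 calls depended on the fit. With only the 9 libraries of that day fitted, 0 members were called with limma, and *Hist1h1c*, *Hist1h2ag* and *Hist2h2aa2* had adjusted p of 0.0687, 0.0583 and 0.227. The count was 1 without E14Tg2a replicate 2 and 6 without ΔK9.1 replicate 3 or ΔK9.2 replicate 3. The median difference of the replication-dependent genes was -0.32 (all genes 0.00), with 41 of 53 negative (50.4% of all genes). All clone libraries lay below all E14Tg2a libraries for 5 of them, against 7.99% of all genes, and above them for 0, against 5.44%. Of the replacement genes, 0 of 11 passed on day 8 with limma (19.7% of all genes did), with 2 at an unadjusted p below 0.05 (32.0% of all genes) and a median of 0.07. On days 4 and 6 likewise 0 of 11 passed with limma (2.85% and 3.83% of all genes did), with 0 and 4 at an unadjusted p below 0.05 (15.5% and 17.0% of all genes); blocking on replicate number, *H2afy2* passed lower on day 6 (-0.97, adjusted p = 0.0312).

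**Figure D4:**
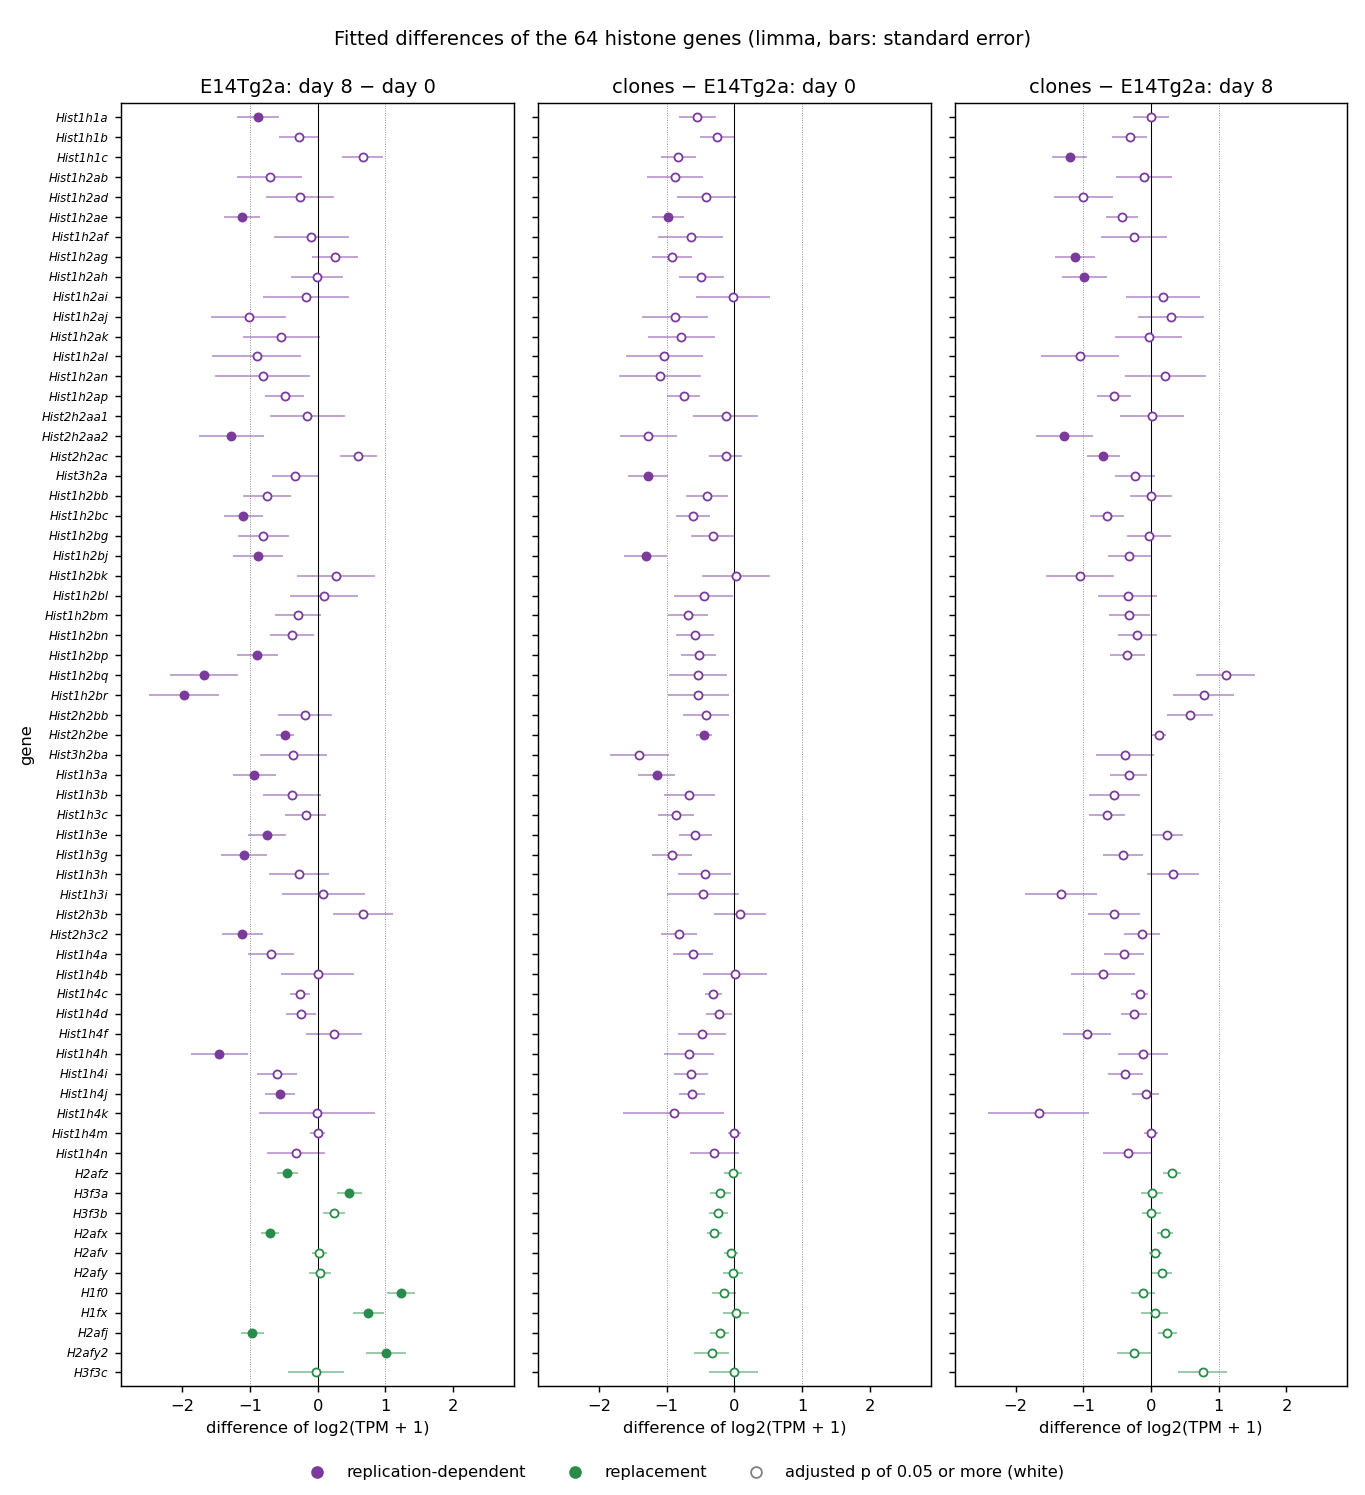
Fitted log2(TPM + 1) differences of the 64 histone genes (points, with SE bars) for E14Tg2a day 8 minus day 0, clones minus E14Tg2a on day 0 and clones minus E14Tg2a on day 8. Replication-dependent genes are purple, replacement genes green, white points have an adjusted p of at least 0.05, and dotted lines mark a difference of 1 in either direction. Most purple points lie below 0 in all 3 comparisons (44, 49 and 41 of 53).

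Genes that act on histone mRNA and histones were read from 3 lists. Of 26 genes for histone mRNA transcription and processing, 0 were called higher (15.9% of all genes) and 2 lower (11.0%) in E14Tg2a on day 8, with a median of -0.26 (all genes 0.05). The 2 were *Zfp473* (-1.16) and *Coil* (-1.09), which encode a histone pre-mRNA processing factor and coilin of the Cajal body. *Slbp*, which encodes the stem-loop binding protein, was at 114 ± 11.7 TPM (SD, n = 3) on day 0 and 105 ± 20.1 TPM on day 8 in E14Tg2a, a difference of -0.12 (adjusted p = 0.532, limma). *Npat*, the coactivator of cluster histone genes, differed by -0.09 (adjusted p = 0.66). Between clones and E14Tg2a on day 8, *Slbp* differed by 0.19 (adjusted p = 0.378) and *Npat* by 0.12 (adjusted p = 0.624). In that comparison 5 of the 26 passed higher (7.52% of all genes) and 0 lower (12.2%), *Coil* (0.51) and *Zfp473* (0.41), neither of which passed with only that day's libraries (adjusted p = 0.129 and 0.141) or without E14Tg2a replicate 2 (0.0601 and 0.134), and 3 named after their values were seen, *Snrpd3* (0.55), *Snrpg* (0.49) and *Ncbp2* (0.33).

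Of 35 genes on the S phase list, 3 were called higher (15.9% of all genes) and 5 lower (11.0%) in E14Tg2a on day 8. Without the fold minimum 5 passed higher (32.1%) and 18 lower (26.2%), with a median of -0.36. The list also holds regulators, among them a cyclin-dependent kinase inhibitor, so these counts are no measure of S phase content. Those called were the cyclin E genes in opposite directions, *Ccne1* (-1.89) and *Ccne2* (1.66), as well as *E2f2* (-1.58), the DNA polymerase alpha gene *Pola1* (-1.36), the uracil glycosylase gene *Ung* (-1.32), *Mcm5* (-1.07) of the replicative helicase, named after its value was seen, the cyclin D2 gene *Ccnd2* (3.29) and the cyclin-dependent kinase inhibitor gene *Cdkn1c* (4.09). In the clones on day 8, 9 genes of the S phase list passed higher (7.52% of all genes) and 1 lower (12.2%). The lower one was the inhibitor gene *Cdkn1c* (-1.73, adjusted p = 0.00052, limma, or 0.0574 with only that day's libraries). Of 33 histone chaperone and remodelling genes, 1 was called higher (15.9% of all genes) in E14Tg2a on day 8, *Rbbp7* (1.43), and 3 lower (11.0%), *Ino80* (-1.28), *Set* (-1.22) and *Mcm2* (-1.03), the last named after its value was seen. On day 0, where the median difference of the replication-dependent genes between clones and E14Tg2a was -0.58, the S phase list had a median of 0.07, and 1 of its genes passed higher in the clones (2.76% of all genes; *Ung*, 0.56, lost without E14Tg2a replicate 2 or 3, adjusted p = 0.0554 and 0.139) and 0 lower (1.23%). The part of S phase content in the histone differences was not tested.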

How the data were processed

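Poly-A-enriched, stranded libraries of 3 lines on days 0, 4, 6 and 8 were sequenced by the authors, who aligned them with STAR to mm10 and quantified them with RSEM. Versions and the gene annotation they used are not given in the sources used here. TPM were computed by them after outliers on the leading principal component had been left out, and the study's methods do not say what these outliers were. The deposited table gives 1 TPM value per gene and library, as computed by the authors with RSEM. TPM keeps no depth, so counting error is unknown. The table also holds 22 columns of the authors' own comparisons (log2 fold changes and FDR), which were not used. Every listed gene had a mean of at least 1 TPM in some group.

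Tests used limma 3.58.1 in R 4.3.3, with a group-means model over all 33 libraries on log2(TPM + 1), an intensity trend and Benjamini-Hochberg adjustment over 16336 genes. A call needed an adjusted p below 0.05 and a log2 difference above 1 in size. The fit was tested on simulated data. Tables and figures were made with Python 3.11.15. The replicates are separate assays, in which the lines were differentiated side by side. Deviations of libraries of the same number from their group means correlated with a median r of 0.22 over 33 pairs (31 above 0.1), against -0.13 for 60 pairs of different number, over all genes. Over the replication-dependent genes alone the medians were 0.13 (17 above 0.1) and -0.02 (15 above 0.1). Deviations within a group sum to 0, so the r of different numbers is tied to that of the same number and is no separate contrast. As the lines shared assays, the replicate number was taken as pairing the libraries in the counts by number and in the block. The main fit held no term for it, so its p-values leave the pairing out. With the block, 13 members began to pass, in 19 cases, and 1 stopped passing.

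The members and gene lists were chosen with earlier results of these data known. Named were all replacement genes, the 12 replication-dependent genes of highest mean TPM, up to 8 others called in E14Tg2a on day 8 and up to 8 in the clones on day 8 (those of largest difference), regulators called in either comparison (at most 12), *Slbp* and *Npat*. Other genes are named as chosen after their values were seen, or for sequence or counts. Transcripts were those of GENCODE M21 (mm10), and promoter windows those of RefSeq (GRCm38.p6).

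Alternative fits used no filter, a filter at 5 TPM in at least 1 group, a pseudocount of 0.1, median-ratio scaling, the replicate number as a block, a fit of only the groups compared, and leaving out each library. Leaving out annotated pseudogenes and summing near-identical pairs were added after seeing the data.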

Additional observations from a re-analysis of the deposited data

Results flagged for a closer look

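*Hist2h2be*, an H2B gene, was the single member that passed the test of the time course between lines. Its day 8 minus day 0 difference in both clones exceeded that in E14Tg2a by 0.56 in log2(TPM + 1) units (adjusted p = 0.0364, limma), which is below the fold minimum. It was at 0.723, 1.20 and 1.15 TPM on day 0 and 0.317, 0.549 and 0.489 TPM on day 8 in E14Tg2a. The corresponding levels were 0.362, 0.220 and 0.232 then 0.805, 0.374 and 0.345 TPM in ΔK9.1, and 0.656, 0.703 and 0.774 then 0.704, 0.629 and 0.591 TPM in ΔK9.2. All E14Tg2a libraries were lower on day 8 than on day 0, and all ΔK9.1 libraries were higher than their day 0 library of the same number. These levels are near or below 1 TPM. The difference did not pass with a pseudocount of 0.1 (adjusted p = 0.0537, limma), with only the groups compared fitted (0.0901), or when any 1 of 9 libraries of those groups was left out (0.0503 to 0.111), and with a minimum of 5 TPM it was not tested. With median-ratio scaling *H2afx* also passed (0.59, adjusted p = 0.0459).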

How the results depend on the processing

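TPM values keep no depth, so counting error cannot be given, and 21 of 53 replication-dependent genes reached 5 TPM in a group. With a minimum of 5 TPM in a group the members called numbered 5 instead of 9 (E14Tg2a day 4), 6 instead of 10 (E14Tg2a day 6), 5 instead of 8 (ΔK9.2 day 6) and 1 instead of 3 (clones against E14Tg2a, day 0), which left 31 of 64 members to be called. A pseudocount of 0.1 gave 5 instead of 3 (ΔK9.1 day 4), 2 instead of 1 (ΔK9.1 day 6), 8 instead of 4 (ΔK9.1 day 8) and 3 instead of 1 (clones, day 6). Fitting only the groups compared gave 4 instead of 1 (ΔK9.1 day 6) and 0 instead of 3 (clones, day 8). With the replicate block, which keeps the pairing, the clones had 2 called on day 6 instead of 1, and *Hist1h2ai* no longer passed on day 6 in E14Tg2a (adjusted p = 0.0602, limma), the single member that stopped passing, while 13 members began to pass, some in more than 1 comparison (19 cases in all). Without *Hist1h2ap* the replication-dependent sum of ΔK9.1 on day 4 was 94.1 instead of 105 TPM. The causes were not tested. Leaving out 1 library at a time gave 6 to 10 (E14Tg2a day 4), 5 to 10 (day 6, 5 without E14Tg2a replicate 3 of day 6) and 9 to 12 (day 8) members called, 2 to 4, 1 to 2 and 2 to 5 for ΔK9.1, 4 to 7, 5 to 11 and 6 to 10 for ΔK9.2, and 0 to 6, 0, 0 to 3 and 1 to 6 for the clones against E14Tg2a on days 0, 4, 6 and 8. Median-ratio scaling moved the median of all genes on day 4 from -0.21 to 0.00 in ΔK9.1 and from -0.16 to 0.00 in ΔK9.2, where the replication-dependent medians became 0.19 and -0.24. A pseudocount of 0.1 moved the replication-dependent median by over 1.5 times, from -0.45 to -0.73 (E14Tg2a day 4), 0.13 to 0.25 (ΔK9.1 day 4), -0.34 to -0.57, -0.30 to -0.63 and -0.46 to -1.03 (ΔK9.2 days 4, 6 and 8), and -0.58 to -0.98, -0.38 to -0.79 and -0.32 to -0.58 (clones, days 0, 6 and 8). A minimum of 5 TPM, which leaves 21 of the 53 genes, moved that median from -0.30 to -0.76 and -0.46 to -0.74 (ΔK9.2 days 6 and 8). It also moved from -0.38 to -0.83 and -0.32 to -0.55 (clones, days 6 and 8), -0.39 to -0.24 (E14Tg2a day 6) and 0.01 to -0.18 (ΔK9.1 day 8). Summed with *Hist1h4n*, *Hist1h4m* turned from 1.44 to -0.18 (ΔK9.2 day 6) and from 0.72 to -0.43 (clones, day 6). No other passed difference of a member changed sign under the alternatives run.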
